A study of Danio rerio with 8 samples.

Results

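Bone morphogenetic proteins (BMPs) pattern the dorsoventral axis of the zebrafish gastrula, and 10 genes of this system were followed in the absence of *miR-34a*. They were chosen by name among the 32520 genes counted: the ligand genes *bmp2b*, *bmp4*, *bmp7a* and *admp*, the antagonist genes *chrd* and *nog1*, the feedback genes *szl* and *bambia*, the protease gene *tll1* and the signal transducer gene *smad5*. All 10 could be found among the counted genes. Whole embryos were sampled at 8 hours post-fertilization (hpf), during gastrulation, in 4 pools that lacked *miR-34a* (*miR-34a-/-*) and 4 wild-type pools, each made into a library of polyadenylated RNA. Both genotypes are in the *casper* background, a line that lacks most of its pigment, and no embryo was treated. The *miR-34a-/-* embryos are maternal-zygotic mutants from 1 CRISPR/Cas9 deletion line that was kept as a separate homozygous stock, so they and the wild-type embryos were not siblings, and the deletion cannot be told apart from other differences between the stocks. The labels give 30 embryos a pool in one place and 30 to 50 in another, and nothing says which pools came from separate crosses, so p-values measure the spread between these libraries, which may be technical.

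In the fish gastrula, heterodimers of Bmp2b and Bmp7 made on the ventral side bind type I and type II receptors, which phosphorylate Smad5 and turn on ventral genes. Chordin and Noggin, secreted by the dorsal organizer, bind the ligands and keep them from their receptors, while Tolloid-family proteases cut Chordin and free them again. BMP signalling also turns on its own brakes, among them *szl*, whose product Sizzled inhibits the proteases that cut Chordin, and *bambia*, which encodes a membrane pseudoreceptor. Admp is a BMP-like ligand made on the dorsal side and repressed there by BMP signalling.

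The deposited values are counts of reads per gene. They are given as CPM, counts per 1000000 counts of a library whose size was normalized by the TMM method of edgeR. CPM does not correct for gene length, so levels are compared between genotypes and not between genes. The libraries held between 8159574 and 15724724 counts in *miR-34a-/-* and between 7132045 and 11191023 in wild-type embryos. No read of *mir34a* itself was counted in any of the 8 libraries, so it gives no check of the labels. All 12 gastrula markers looked at averaged at least 10 CPM in both genotypes, and 5 of 8 paired markers of later tissues had at most 3 counts in every library. Principal component 1 held 70.1% of the variance between the libraries. By a chi-square of the counts per gene, pairs of libraries within a genotype differed by at most 5.80. Pairs between the genotypes differed by at least 13.1. Each gene was tested by the quasi-likelihood test of edgeR, and p-values were adjusted by the Benjamini-Hochberg method over the 13842 genes that passed its filter on low counts, and a gene is called higher or lower in *miR-34a-/-* embryos at an adjusted p under 0.05. A positive log2 fold change means a higher level in *miR-34a-/-* embryos. In these whole-embryo libraries, fewer cells of a type and less RNA per cell cannot be told apart.

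Of the 10 members, all of which passed the filter, *bmp7a* and *smad5* were higher in *miR-34a-/-* embryos, *admp*, *szl* and *chrd* were lower, and *bmp2b*, *bmp4*, *nog1*, *bambia* and *tll1* did not pass the test. Over all genes tested 45.4% were called, 23.0% higher and 22.4% lower, so the 5 calls among the 10 members are near the background. In edgeR's test 0 of 10 members passed a 1.5-fold change together with the adjusted p, and 0 did with an unadjusted p under 0.05 or in DESeq2, limma-voom or the likelihood ratio test, while 17.6% of all genes tested did in edgeR's test. The limit was close for *admp*, which passed it with upper-quartile normalization (log2 fold change -0.59), without wild-type replicate 3 (-0.60) and without *miR-34a-/-* replicate 4 (-0.61). Among the 4773 genes whose mean CPM lay within the range of the members, 26.7 to 480.4, 52.7% were called and 4.92% were called past 1.5-fold. The median absolute log2 fold change was 0.16 over the members, against 0.15 over those 4773 genes and 0.23 over all genes tested. For 5 of the 10 members, the same 5 as were called, the libraries of the genotypes formed separate ranges, against 38.8% of all genes tested.

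**Figure D1:**
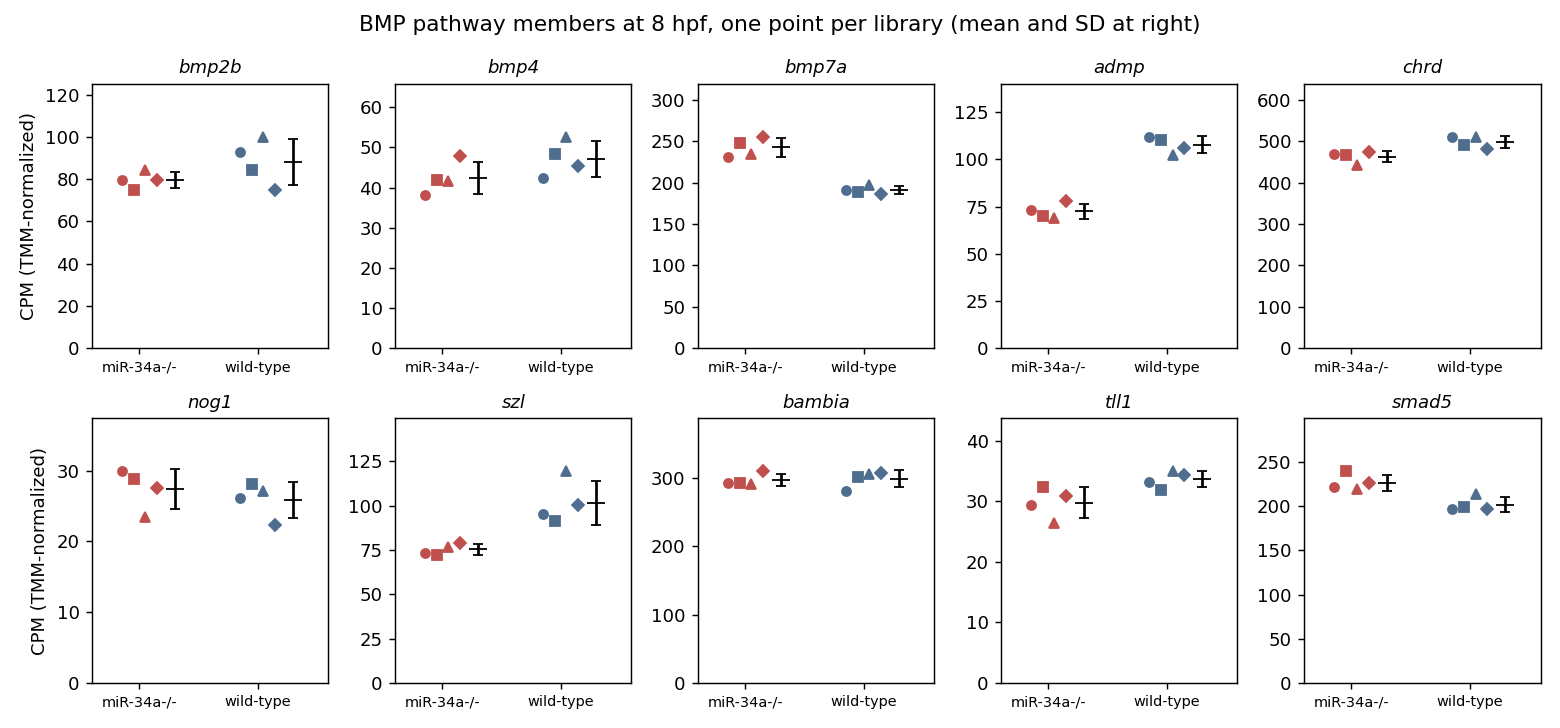
CPM of each member by genotype, with 1 point for each library (circle, square, triangle and diamond for replicates 1 to 4) and the mean with its SD at the right of each group, n = 4. Every axis starts at 0. The points of *bmp7a* and *smad5* in *miR-34a-/-* embryos all lie above those in wild-type embryos, and the points of *admp*, *szl* and *chrd* all lie below.

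Among the ventral ligands, *bmp7a* (ENSDARG00000018260), which encodes the Bmp7 partner of the ventralizing heterodimer, was higher in *miR-34a-/-* embryos. It had 231, 248, 234 and 256 CPM in *miR-34a-/-* libraries 1 to 4, against 191, 188, 197 and 186 CPM in wild-type libraries 1 to 4. The lowest *miR-34a-/-* library lay well above the highest wild-type library, with means of 242 ± 11.5 CPM in *miR-34a-/-* embryos and 191 ± 4.54 CPM in wild-type embryos (SD, n = 4 each). The log2 fold change of 0.35 (± 0.043 by SE, edgeR adjusted p = 2.28e-07) is a fold of 1.27, and the two-sided exact permutation test over the 70 assignments of the libraries gave p = 0.0286, the smallest it can give. Leaving out any 1 library left the log2 fold change between 0.32 and 0.37.

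Its partner in the heterodimer did not pass the test. *bmp2b* (ENSDARG00000041430) had 79.8, 75.0, 84.5 and 79.4 CPM in *miR-34a-/-* libraries 1 to 4, against 92.8, 84.4, 100.2 and 75.0 CPM in wild-type libraries 1 to 4. All *miR-34a-/-* values lay within the range of the wild-type values, which was the wider one. Its log2 fold change was -0.15 (± 0.066 by SE, edgeR adjusted p = 0.0574), with an interval of -0.29 to -0.019 that is not adjusted for the number of genes. The gene passed the threshold without wild-type replicate 4 (log2 fold change -0.22, adjusted p = 0.00572), wild-type replicate 2 (-0.18, adjusted p = 0.0333) or *miR-34a-/-* replicate 3 (-0.18, adjusted p = 0.0478).

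For *bmp4* (ENSDARG00000019995), a ligand gene close in sequence to *bmp2b* that acts in the ventral and tail regions, the libraries had 38.3, 41.9, 41.6 and 47.9 CPM in *miR-34a-/-* libraries 1 to 4, against 42.3, 48.4, 52.7 and 45.3 CPM in wild-type libraries 1 to 4. *miR-34a-/-* replicate 4 lay among the wild-type libraries, and the log2 fold change of -0.15 (± 0.075 by SE, edgeR adjusted p = 0.101) did not pass, with an interval of -0.30 to 0.0021. Without that library it was -0.23 (adjusted p = 0.0191), and without wild-type replicate 1 it was -0.20 (adjusted p = 0.0396).

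*admp* (ENSDARG00000025372), the dorsally expressed ligand gene, had the largest change of the 10 in either direction. Its level was 73.2, 69.9, 69.2 and 77.7 CPM in *miR-34a-/-* libraries 1 to 4, against 112, 110.4, 102 and 106 CPM in wild-type libraries 1 to 4. No library of one genotype came near the other, and the means were 72.5 ± 3.88 CPM in *miR-34a-/-* embryos and 108 ± 4.37 CPM in wild-type embryos (SD, n = 4 each). This is a log2 fold change of -0.57 (± 0.053 by SE, 95% interval -0.68 to -0.46, edgeR adjusted p = 1.47e-09), a fold of 0.675. The two-sided exact permutation test gave p = 0.0286, its smallest, and the log2 fold change lay between -0.61 and -0.54 over the fits that each lacked 1 library.

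*chrd* (ENSDARG00000006110), which encodes Chordin, the main BMP antagonist of the organizer, was read most deeply among the members, with 39480 counts in all, and had the smallest SE. It had 469, 468, 442 and 473 CPM in *miR-34a-/-* libraries 1 to 4, against 509.7, 490.1, 511 and 480.2 CPM in wild-type libraries 1 to 4. The genotypes did not overlap, but the gap between the highest *miR-34a-/-* and the lowest wild-type library was narrow. By the fit, the log2 fold change was -0.10 (± 0.038 by SE, edgeR adjusted p = 0.0255), a fold of 0.930, with p = 0.0286 in the two-sided exact permutation test. The call rests on single libraries: without *miR-34a-/-* replicate 3 the adjusted p was 0.108 (log2 fold change -0.08), and without wild-type replicate 1 it was 0.0706 (-0.09).

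*nog1* (ENSDARG00000058819), one of the Noggin genes and the least counted member with 2215 counts, had 29.9, 28.9, 23.4 and 27.5 CPM in *miR-34a-/-* libraries 1 to 4, against 26.2, 28.1, 27.1 and 22.2 CPM in wild-type libraries 1 to 4. The ranges of the genotypes overlapped almost fully. Its log2 fold change was 0.077 (± 0.086 by SE, edgeR adjusted p = 0.489), and the interval of -0.10 to 0.25 leaves room for a change of either sign.

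Of the feedback genes, *szl* (ENSDARG00000099637), whose product Sizzled protects Chordin from cleavage, was lower in *miR-34a-/-* embryos, with 73.5, 72.2, 76.7 and 79.1 CPM in *miR-34a-/-* libraries 1 to 4, against 95.3, 91.3, 119 and 101 CPM in wild-type libraries 1 to 4. All *miR-34a-/-* libraries lay within a narrow band below the wild-type libraries, whose spread was wider: the coefficient of variation was 4.14% in *miR-34a-/-* and 12.2% in wild-type embryos. The log2 fold change was -0.43 (± 0.065 by SE, 95% interval -0.57 to -0.30, edgeR adjusted p = 4.77e-06), a fold of 0.741, with p = 0.0286 in the two-sided exact permutation test. Fits that each lacked 1 library gave -0.49 to -0.35.

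*bambia* (ENSDARG00000055381), the other feedback gene, showed the smallest difference of the 10. It had 292, 293, 291 and 309.7 CPM in *miR-34a-/-* libraries 1 to 4, against 281, 302, 306 and 308 CPM in wild-type libraries 1 to 4. With a log2 fold change of -0.011 (± 0.041 by SE, edgeR adjusted p = 0.844), it has a 95% interval of -0.10 to 0.073 that is among the narrowest of the members, so that a change as large as that of *szl* lies outside it. Its sign turned, to 0.0011, without wild-type replicate 4 or without *miR-34a-/-* replicate 3.

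*tll1* (ENSDARG00000037429) encodes a Tolloid-like protease that cuts Chordin. It had 29.5, 32.4, 26.4 and 31.0 CPM in *miR-34a-/-* libraries 1 to 4, against 33.3, 32.0, 35.0 and 34.4 CPM in wild-type libraries 1 to 4. Only *miR-34a-/-* replicate 2 reached into the wild-type range. Its log2 fold change of -0.17 (± 0.074 by SE, 95% interval -0.32 to -0.013, edgeR adjusted p = 0.0709) did not pass, although it did without *miR-34a-/-* replicate 2 (-0.20, adjusted p = 0.0440).

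*smad5* (ENSDARG00000037238), which encodes the transcription factor phosphorylated by BMP receptors, was higher in *miR-34a-/-* embryos, with 222, 239.7, 219.6 and 227 CPM in *miR-34a-/-* libraries 1 to 4, against 196, 199, 214 and 197 CPM in wild-type libraries 1 to 4. The genotypes had separate ranges, and wild-type replicate 3 lay closest to the *miR-34a-/-* libraries. Its log2 fold change was 0.17 (± 0.044 by SE, 95% interval 0.079 to 0.26, edgeR adjusted p = 0.00256), a fold of 1.12, with p = 0.0286 in the two-sided exact permutation test. Fits that each lacked 1 library gave 0.14 to 0.19.

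**Figure D2:**
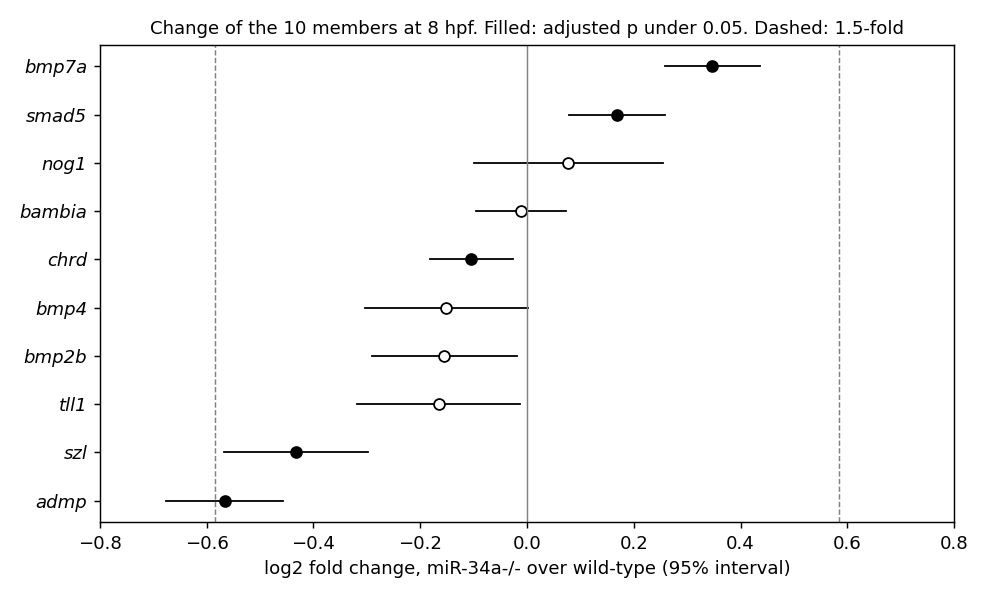
Log2 fold change of each member, *miR-34a-/-* over wild-type, as a point with its 95% interval, which is not adjusted for the number of genes. Filled points have an adjusted p under 0.05 and dashed lines mark 1.5-fold. *bmp7a* at 0.35 and *admp* at -0.57 lie at the ends, and *bambia* lies at -0.011.

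Some libraries stood high or low for many members. Wild-type replicate 3 was the highest wild-type library for 7 of the 10 members and the lowest for *admp*. Among the *miR-34a-/-* libraries, replicate 4, the deepest library of all, was highest for 6 members, and replicate 3 was lowest for 6. The 10 genes share these libraries, so the calls are not independent of each other, and the part of library differences in them was not tested beyond leaving out each library.

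Ratios of counts within a library do not depend on scaling between libraries. When a ratio of 1 gene to 1 other gene is compared between genotypes, the lengths of the genes cancel. They do not cancel in a sum of genes, where the share of each ligand gene in the counts depends on its length. The log2 ratio of *chrd* to the summed counts of *bmp2b*, *bmp4* and *bmp7a* was 0.42, 0.36, 0.29 and 0.31 in *miR-34a-/-* libraries 1 to 4, against 0.64, 0.61, 0.55 and 0.65 in wild-type libraries 1 to 4. Every *miR-34a-/-* library had fewer *chrd* reads per read of this sum than every wild-type library. The difference in means was -0.27 on the log2 scale. Without *bmp4* in the sum the difference was -0.31. Most counts of the sum were of *bmp7a*, its only gene that was called, which was higher. *bmp2b* and *bmp4*, not called, had log2 fold changes of -0.15 each, against -0.10 for *chrd*. A lower ratio of *chrd* to either of them alone is thus not shown. Between the partners of the heterodimer, the log2 ratio of *bmp7a* to *bmp2b* was 1.54, 1.73, 1.47 and 1.69 in *miR-34a-/-* libraries 1 to 4, against 1.04, 1.16, 0.97 and 1.31 in wild-type libraries 1 to 4. The ratio was higher in each *miR-34a-/-* library, by 0.48 in the means.

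On the dorsal side, the log2 ratio of *admp* to *chrd* was -2.68, -2.74, -2.68 and -2.61 in *miR-34a-/-* libraries 1 to 4, against -2.18, -2.15, -2.32 and -2.18 in wild-type libraries 1 to 4. Both genes are expressed in the organizer, and the fall of *admp* was larger than that of *chrd* by 0.47 on this scale, without overlap. The log2 ratio of *szl* to *chrd* was -2.67, -2.69, -2.53 and -2.58 in *miR-34a-/-* libraries 1 to 4, against -2.42, -2.42, -2.10 and -2.25 in wild-type libraries 1 to 4. It was lower in every *miR-34a-/-* library, by 0.32 in the means, so that the Sizzled transcript was reduced more than the transcript of the antagonist that Sizzled protects. The genes of each ratio were chosen with their changes known, and no test was made on the ratios.

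**Figure D3:**
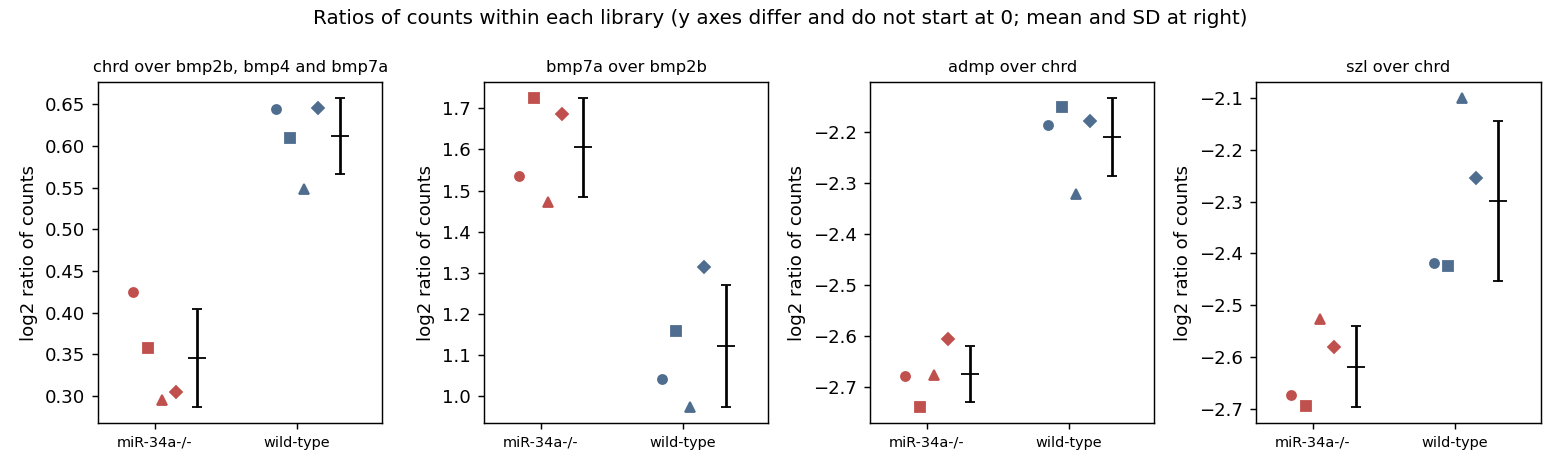
Log2 ratios of counts within each library for *chrd* over the 3 BMP ligands, *bmp7a* over *bmp2b*, *admp* over *chrd* and *szl* over *chrd*, by genotype, with 1 point for each library and the mean with its SD, n = 4. The axes differ and do not start at 0, and the genotypes do not overlap in any of the 4 panels.

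Around the 10 members, 72 other genes of the BMP pathway were listed, of which 70 could be found in the counts and 49 passed the filter. Of these 49, 11 were called higher and 10 lower, or 42.9%, against 45.4% of all genes tested. Their median log2 fold change was 0.014 and their median absolute log2 fold change 0.14. The genotypes did not overlap for 16 of the 49, against 38.8% of all genes tested.

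Other BMP ligand genes were hardly read. Of 12, only *bmp15*, an oocyte growth factor gene, and *bmp16* passed the filter, the other 10 averaged under 1 CPM in both genotypes, and 4 had no count in any library. *bmp16* had 3.38 ± 0.776 CPM in *miR-34a-/-* embryos and 3.64 ± 0.548 CPM in wild-type embryos (SD, n = 4 each), and its log2 fold change of -0.14 (± 0.21 by SE, edgeR adjusted p = 0.613) did not pass. For *bmp15* the log2 fold change was 0.48 (± 0.35 by SE, edgeR adjusted p = 0.272).

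Among 9 tested receptor genes 1 was higher and 1 lower, or 22.2%, against 45.4% of all genes tested. The called genes are the pair of type IIB activin receptor genes. *acvr2bb* had 40.9 ± 4.64 CPM in *miR-34a-/-* embryos and 31.8 ± 4.10 CPM in wild-type embryos (SD, n = 4 each), with a log2 fold change of 0.38 (± 0.086 by SE, edgeR adjusted p = 7.38e-04) and overlap between *miR-34a-/-* replicate 3 and the wild-type libraries. Its paralogue *acvr2ba* had 11.2 ± 0.903 CPM in *miR-34a-/-* embryos and 17.2 ± 1.51 CPM in wild-type embryos (SD, n = 4 each), a log2 fold change of -0.61 (± 0.10 by SE, edgeR adjusted p = 2.10e-05) without overlap. How the counting divided reads between these paralogues is not known. *acvr1l*, a type I receptor gene for the ventralizing ligands, is named here after its values were seen. It had 181 ± 1.16 CPM in *miR-34a-/-* and 194 ± 4.48 CPM in wild-type embryos (SD, n = 4 each), which did not overlap. Its adjusted p was 0.0592 in edgeR's test (log2 fold change -0.10).

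Inside the cell, 4 of 11 genes of transducers and inhibitors were higher and 2 lower, or 54.5%, against 45.4% of all genes tested. *smurf1*, whose product marks BMP Smads and receptors for degradation, had 48.0 ± 3.10 CPM in *miR-34a-/-* embryos and 35.0 ± 1.66 CPM in wild-type embryos (SD, n = 4 each, log2 fold change 0.45 ± 0.067 by SE, edgeR adjusted p = 4.37e-06). *tob1a*, related to a mammalian inhibitor of BMP Smads, had 89.7 ± 0.789 CPM in *miR-34a-/-* embryos and 71.7 ± 5.98 CPM in wild-type embryos (SD, n = 4 each, log2 fold change 0.32 ± 0.056 by SE, edgeR adjusted p = 4.59e-05). *smad6a*, an inhibitory Smad gene, had a log2 fold change of 0.27 (± 0.07 by SE, edgeR adjusted p = 0.00260). In each of these 3 inhibitor genes, named for their small adjusted p, the lowest *miR-34a-/-* library lay above the highest wild-type library. Over the whole list 4 of 11 genes had separate ranges, against 38.8% of all genes tested. Inhibitor genes of the list did not all rise. *smad6b* (log2 fold change -0.030), *smurf2* (-0.014), *smad7* (0.12) and *bambib* (0.13), named after their values were seen, were not called, and their genotypes overlapped. The other BMP-responsive Smad genes gave calls that rest on single libraries. *smad9* was lower (log2 fold change -0.32 ± 0.11 by SE, edgeR adjusted p = 0.0204), a call that was lost with DESeq2 (adjusted p = 0.0525) and without wild-type replicate 3 (0.0874). *smad1*, named after its values were seen, was higher (log2 fold change 0.22 ± 0.086 by SE, edgeR adjusted p = 0.0411), with overlap, and its call was lost with DESeq2 (adjusted p = 0.0858) and without wild-type replicate 2 (0.100), wild-type replicate 3 (0.153) or *miR-34a-/-* replicate 2 (0.154). *ppm1aa*, a phosphatase gene, was also lower (log2 fold change -0.19 ± 0.07 by SE, edgeR adjusted p = 0.0300), but not past the threshold without wild-type replicate 3 (0.0559) or 4 (0.123) or without *miR-34a-/-* replicate 1 (0.0932) or 3 (0.107). DESeq2 called 3 of the 11 higher and 1 lower, against 2732 higher and 2675 lower of all 13842 genes.

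Among extracellular modulators, 16 of 18 genes could be paired and 7 tested, of which 2 were lower. That is 28.6% called, against 45.4% of all genes tested. *sfrp1a*, a secreted Frizzled-related gene of the same protein family as *szl*, had 177 ± 11.4 CPM in *miR-34a-/-* embryos and 203 ± 8.30 CPM in wild-type embryos (SD, n = 4 each, log2 fold change -0.21 ± 0.048 by SE, edgeR adjusted p = 9.20e-04) without overlap. *fsta*, a follistatin gene, was read at about 1 CPM, and its fall (log2 fold change -0.82 ± 0.30 by SE, edgeR adjusted p = 0.0283) came with overlap between the genotypes. That call was lost with DESeq2 (adjusted p = 0.0932), which kept *sfrp1a* alone, and without wild-type replicate 2 (0.105) or *miR-34a-/-* replicate 1 (0.0669), 2 (0.0503) or 4 (0.122). No gene of this list was called higher by edgeR's quasi-likelihood test, against 23.0% of all genes tested, or by DESeq2, against 2732 of all 13842 genes. In edgeR's test 1 was higher at an unadjusted p under 0.05, and 1 each was called higher by limma-voom and the likelihood ratio test.

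Of 20 genes listed as responding to BMP signalling on the ventral side, the keratin genes *krt4* and *krt8* among them, 6 were higher and 5 lower. All 20 passed the filter, and whether each of them responds to BMP in these embryos was not tested. That is 55.0%, against 45.4% of all genes tested. The median log2 fold change of the 20 was -0.019. They did not move one way. *vent*, a ventral homeobox repressor of organizer genes, had 88.5, 96.2, 88.9 and 94.3 CPM in *miR-34a-/-* libraries 1 to 4, against 72.9, 68.2, 80.0 and 67.9 CPM in wild-type libraries 1 to 4, without overlap (log2 fold change 0.35 ± 0.057 by SE, edgeR adjusted p = 1.66e-05). *klf2b* (log2 fold change 0.17 ± 0.043 by SE, edgeR adjusted p = 0.00255) and *tfap2a* (log2 fold change 0.14 ± 0.04 by SE, edgeR adjusted p = 0.00455), transcription factor genes of the ventral ectoderm, were higher as well. In the other direction, *id3*, a direct BMP target in vertebrates, had 89.0, 104, 84.5 and 94.9 CPM in *miR-34a-/-* libraries 1 to 4, against 120.3, 122, 111 and 116 CPM in wild-type libraries 1 to 4 (log2 fold change -0.33 ± 0.057 by SE, edgeR adjusted p = 3.52e-05). *eve1*, a homeobox gene of the ventral margin, was lower (log2 fold change -0.23 ± 0.049 by SE, edgeR adjusted p = 4.60e-04), as was the keratin gene *krt8* (log2 fold change -0.15 ± 0.034 by SE, edgeR adjusted p = 8.56e-04). All 6 of these genes, named for their small adjusted p, had separate ranges in the genotypes. Over the whole list 9 of 20 did, against 38.8% of all genes tested. *ved* and *vox*, also on this list, are named here after their values were seen. *ved* was lower without overlap (log2 fold change -0.14 ± 0.041 by SE, edgeR adjusted p = 0.00868). *vox* was not called (log2 fold change 0.066 ± 0.040 by SE, edgeR adjusted p = 0.187), so neither was called higher, unlike *vent*. DESeq2 called 4 of the 20 higher and 5 lower, against 2732 higher and 2675 lower of all 13842 genes.

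**Figure D4:**
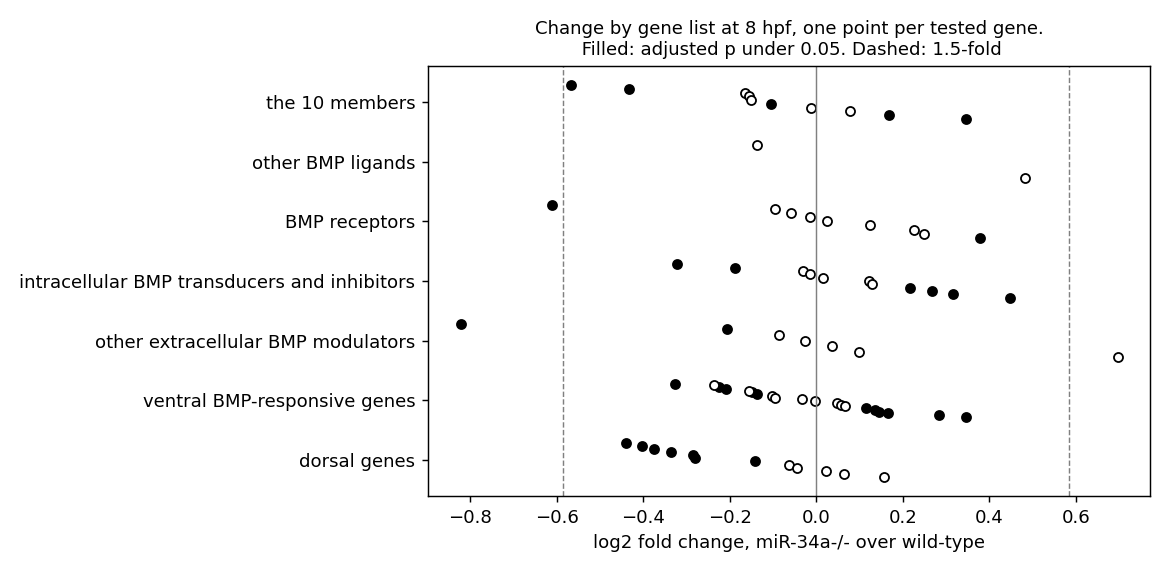
Log2 fold change, *miR-34a-/-* over wild-type, of each tested gene by list, with the 10 members at the top, filled points for an adjusted p under 0.05 and dashed lines at 1.5-fold. Called genes lie on both sides of 0 among receptors, transducers and ventral genes, while the 7 called dorsal genes all lie below 0.

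The falls of *admp* and *chrd*, both organizer genes, came with lower levels of some other dorsal genes. Of 12 tested genes of a list for the dorsal side, 7 were lower, against 22.4% of all genes tested. The list was chosen with earlier results of these data known, so this count is a description only. For 2 of the 12 the libraries formed separate ranges, against 38.8% of all genes tested. No gene of the list was called higher by edgeR's test, against 23.0% of all genes tested, or by DESeq2, against 2732 of all 13842 genes. None was higher at an unadjusted p under 0.05, by limma-voom or by the likelihood ratio test. Not all of its genes fell: *otx2b* (log2 fold change 0.16), *dkk1b* (0.064) and *sox3* (0.023), named after their values were seen, lay above 0 and were not called. The calls with the smallest adjusted p were *frzb*, a secreted Wnt antagonist gene (log2 fold change -0.40 ± 0.06 by SE, edgeR adjusted p = 3.56e-06), and *foxa2*, a gene of axial mesoderm and endoderm (log2 fold change -0.44 ± 0.075 by SE, edgeR adjusted p = 2.71e-05), which are the 2 without overlap. The median log2 fold change of the list was -0.21, and the summed level of its 13 paired genes lay between 1183 and 1314 CPM in the *miR-34a-/-* libraries, against 1242 to 1466 CPM in the wild-type libraries. That sum follows the most read genes of the list more than the others. Lower calls were not limited to this list. Of the 12 gastrula markers, 6 were lower and 2 higher, against 22.4% and 23.0% of all genes tested. *gsc* and *noto*, among those 6, are also on the dorsal list, while *tbxta*, *tbx16*, *sox17* and *ndr2* are not. The part of the number of dorsal cells in the levels of *admp* and *chrd* was not tested.

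Lists linked with developmental stage are given beside these values, where 23.0% of all genes tested were higher and 22.4% lower. Of 7 tested genes of a list for the onset of segmentation, 5 were lower and 1 higher. Some of its genes were already well read at 8 hpf, such as *dlc*, chosen after its values were seen. *dlc* had 119 ± 2.17 CPM in *miR-34a-/-* embryos and 150.2 ± 18.8 CPM in wild-type embryos (SD, n = 4 each). The list thus does not hold only genes that start with segmentation, and it was not tested as a measure of stage. *tbx6*, a gene of the paraxial mesoderm, had 8.61 ± 1.08 CPM in *miR-34a-/-* embryos and 15.6 ± 2.69 CPM in wild-type embryos (SD, n = 4 each, log2 fold change -0.89 ± 0.13 by SE, edgeR adjusted p = 2.36e-06). *pax2a*, a gene of the midbrain-hindbrain region, had 5, 1, 0 and 4 counts in *miR-34a-/-* libraries 1 to 4, against 14, 21, 16 and 17 counts in wild-type libraries 1 to 4 (log2 fold change -2.94 ± 0.44 by SE, edgeR adjusted p = 4.64e-06), a fold change of so few counts that it depends on the prior count. *hoxb1b* was higher (log2 fold change 0.48 ± 0.15 by SE, edgeR adjusted p = 0.0114), with overlap, a call that was lost with DESeq2 (adjusted p = 0.0801) and without *miR-34a-/-* replicate 3 (0.0611). The summed level of the 11 paired genes lay between 243 and 252 CPM in the *miR-34a-/-* libraries, against 264 to 328 CPM in the wild-type libraries. Of 10 tested genes of a list for early zygotic expression, 5 were lower and 1, *vent*, was higher, with *fgf24* at a log2 fold change of -0.60 (± 0.087 by SE, edgeR adjusted p = 2.77e-06) and *ndr2*, a Nodal ligand gene, at -0.59 (± 0.10 by SE, edgeR adjusted p = 1.58e-05). The summed level of the 11 paired genes lay between 988 and 1115 CPM in the *miR-34a-/-* libraries, against 974 to 1068 CPM in the wild-type libraries. Of 15 maternal transcripts, all tested, 7 were higher and 2 lower. The calls with the smallest adjusted p in each direction were *zp3b*, an egg coat gene (log2 fold change 0.59 ± 0.082 by SE, edgeR adjusted p = 1.19e-06), and *buc*, the Balbiani body gene (log2 fold change 1.19 ± 0.31 by SE, edgeR adjusted p = 0.00251), both higher, and *org* (log2 fold change -0.39 ± 0.083 by SE, edgeR adjusted p = 4.41e-04) and *ccnb1*, a cyclin gene (log2 fold change -0.10 ± 0.038 by SE, edgeR adjusted p = 0.0412), both lower. *buc* had 4.29, 2.37, 9.18 and 3.34 CPM in *miR-34a-/-* libraries 1 to 4, against 2.06, 2.27, 1.94 and 1.54 CPM in wild-type libraries 1 to 4, so *miR-34a-/-* replicate 3 stood far above the rest, and without it the log2 fold change was 0.74 (edgeR adjusted p = 0.0170). The call of *ccnb1* was lost with the likelihood ratio test (adjusted p = 0.0589), with no filter on low counts (0.0827), and without wild-type replicate 1 (0.0590) or 2 (0.153) or *miR-34a-/-* replicate 1 (0.129), 2 (0.113) or 3 (0.0606). The summed level of all 15 lay between 1019 and 1079 CPM in the *miR-34a-/-* libraries, against 1021 to 1107 CPM in the wild-type libraries. Most of that sum was *ccnb1*, at 609 ± 14.2 CPM in *miR-34a-/-* embryos and 651 ± 28.9 CPM in wild-type embryos (SD, n = 4 each). The sums of the stage lists thus follow their most read genes, such as *dlc* for segmentation, and do not show how most genes of a list moved. The part of stage in the levels of the 10 BMP genes was not tested.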

How the data were processed

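RNA of 8 pools of whole zebrafish embryos at 8 hpf was sequenced, 4 *miR-34a-/-* and 4 wild-type. The submitters' processing notes name Trim Galore 0.4.4, STAR 2.7.8 and danRer11, and the authors deposited raw counts per Ensembl gene. The counting program, the annotation release and the use of strand are not given in the sources used here, so overlapping genes and near-identical copies are uncertain.

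Groups came from the sample labels. Counts were tested in R 4.3.3 with edgeR 4.0.16 (filterByExpr, TMM, quasi-likelihood test, genotype alone in the model, Benjamini-Hochberg adjustment). The SE is the size of the log2 fold change divided by the square root of F. The test was checked on simulated data. Alternatives were other normalizations and filters, DESeq2 1.42.0, limma-voom (limma 3.58.1), the likelihood ratio test, a replicate block and leaving out each library. The members, the gene lists and the tests were chosen with earlier results of these data known.

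A table of gene names gave 103 of 148 listed symbols directly. Another 38, among them *bmp2b*, *nog1* and *bambia*, were told from their paralogues by named neighbouring genes shared with RefSeq's GRCz12tu gene order, and 7 were not paired. Coordinates are not given, since the builds differ, and sequences were not used here. All members were described, and of each other pathway list the called genes with the smallest adjusted p, at most 3 in each direction (2 for dorsal and stage lists). Figures were drawn with matplotlib 3.10.9. Floors and intervals cover counting error or the spread between libraries only.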

Additional observations from a re-analysis of the deposited data

Results flagged for a closer look

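Among 20 groups of 4 libraries, 1 for each member and genotype, 2 held a library far from the others, by a gap past Dixon's 95% critical value for 4 values, which about 1 in 20 groups is taken to pass by chance. *bambia* had 309.7 CPM in *miR-34a-/-* replicate 4, where the other *miR-34a-/-* libraries lay between 291 and 293 CPM. *smad5* had 214 CPM in wild-type replicate 3, where the other wild-type libraries lay between 196 and 199 CPM. The log2 fold change of *smad5* ranged over 0.14 to 0.19 in the fits that lacked 1 library, and it was called each time, with adjusted p-values from 0.000624 to 0.0195 in edgeR's test.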

How the results depend on the processing

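Alternatives for the genes that are no members were added after seeing the data. The calls of *bmp7a*, *smad5*, *admp* and *szl* kept their direction and stayed under the threshold in every alternative run, with log2 fold changes of 0.32 to 0.37, 0.14 to 0.19, -0.61 to -0.54 and -0.49 to -0.35. The call of *chrd* was also lost without a filter on low counts (log2 fold change -0.10, adjusted p = 0.0603), where more genes were tested. With upper-quartile normalization 5 members were lower in place of 3, as *bmp2b* (-0.17, adjusted p = 0.0323) and *tll1* (-0.19, adjusted p = 0.0425) passed, and the median of all genes moved to -0.021. Without a filter *bmp2b* passed too (-0.15, adjusted p = 0.0372). *acvr1l* passed with upper-quartile normalization (-0.12, adjusted p = 0.0241) and with library size alone (-0.11, adjusted p = 0.0375), and *smad1* lost its call with both (adjusted p = 0.0620 and 0.0514). *bmp16*, not called, ranged over -0.26 to 0.039 in the fits that lacked 1 library, and turned to 0.039 without *miR-34a-/-* replicate 4. *bambia*, which was not called, ranged over -0.041 to 0.0011 in the fits that lacked 1 library, and turned to 0.0011 without wild-type replicate 4 or *miR-34a-/-* replicate 3. Leaving out each library gave 2 members higher each time and 3 to 4 lower, 8 to 10 other pathway genes higher and 7 to 10 lower. It gave 5731 to 6035 genes called in all, and a difference in the *chrd* to ligand ratio of -0.29 to -0.25. The lower members were not the same each time: *bmp4* took the place of *chrd* without wild-type replicate 1, and *bmp2b* did without *miR-34a-/-* replicate 3.

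Replicate numbers did not pair the samples: deviations of same-numbered libraries correlated between -0.032 and 0.0077 over the genes tested. With the replicate number as a block 6082 genes were called, against 6280 without it, and 2 members were higher and 3 lower in both. *smad1*, *fsta* and *ccnb1* were not called under the block (adjusted p of 0.0611, 0.0531 and 0.0592). Differences of a few percent were not detectable for the members with the fewest counts, *nog1*, *tll1* and *bmp4*, whose SE was 0.07 to 0.09. Even for *chrd*, which had the smallest SE, 0.038, and a fold of 0.930, the call was lost in some fits.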
